A study of Mus musculus with 6 samples.

Results

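The Ifitm genes encode small membrane proteins, some of them interferon-inducible. Ifitm RNA was followed in mouse epidermal keratinocytes of the genotype p63 alphaKO and of wild type. p63, encoded by Trp63, is the transcription factor that maintains stratified epithelia such as epidermis. Members were all rows of the expression table whose symbol is Ifitm followed by a number, 7 of the 30349 genes listed: Ifitm1, Ifitm2, Ifitm3, Ifitm5, Ifitm6, Ifitm7 and Ifitm10. The family was chosen by the CPM difference of Ifitm3 between the genotypes, already known from these libraries, so the differences of its members are given as a description, with standard errors and without p-values. The groups were 3 libraries of the genotype p63 alphaKO (replicates 9, 10 and 11) and 3 wild type libraries (replicates 13, 14 and 15), all from primary keratinocytes of mice at postnatal day 2. Cultures of both genotypes were grown to confluence over 5 to 6 days in medium with 2.5 ng/mL EGF, 4% chelated serum and calcium at 0.05 mM. What p63 alphaKO deletes within Trp63, how the allele was made, the strain, and whether each library is its own animal are not given in the labels. Without that last point, errors and p-values measure the spread between these libraries, which may be technical.

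IFITM proteins sit in the plasma membrane and in endosomes and share the CD225 domain. Through it the antiviral members hinder the fusion of enveloped viruses with the cell. Type I and type II interferons induce Ifitm1, Ifitm2 and Ifitm3, and type I acts through the factor complex ISGF3, which binds a DNA element called ISRE. Ifitm3 is the member best known for restricting influenza A virus and, under the name fragilis, for marking early mouse germ cells. Skin epithelium is a barrier tissue in which such genes can be on without infection. Ifitm5 is known from bone-forming cells, and Ifitm10 is the most divergent and least characterised member.

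Of the 7 genes, 5 lie together on chromosome 7 of GRCm38, in GENCODE vM21. On the minus strand are Ifitm5 (140948958 to 140950291), Ifitm2 (140954837 to 140955987), Ifitm3 (141009586 to 141010770) and Ifitm6 (141015699 to 141017924), and on the plus strand is Ifitm1 (140967221 to 140969825). Ifitm10 lies 1363 kb from the start of Ifitm3 on the same chromosome (142325837 to 142373753, minus strand), and Ifitm7 lies on chromosome 16 (13981699 to 13986888, minus strand). Ifitm2 and Ifitm3 had the most similar coding sequences of the 21 pairs, with 76.4% of bases identical in a global alignment. Identity between Ifitm10 and the other members was 36.0% to 44.1%.

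The start regions of the 5 cluster genes are shown because the genes differed in both level and interferon motif near the RefSeq start site. Each sequence runs 5′ to 3′ on the gene's own strand from 90 bases before the RefSeq start site through 30 bases from it on (RefSeq, GRCm38.p6). Capitals mark each match to the ISRE core, which is GAAA, any 2 bases and GAAA again (GAAA-NN-GAAA), searched on both strands.
Ifitm3, chr7:141010715-141010834, minus strand: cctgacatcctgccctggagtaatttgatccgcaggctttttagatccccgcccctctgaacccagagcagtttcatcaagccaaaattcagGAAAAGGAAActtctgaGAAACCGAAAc
Ifitm2, chr7:140955932-140956051, minus strand: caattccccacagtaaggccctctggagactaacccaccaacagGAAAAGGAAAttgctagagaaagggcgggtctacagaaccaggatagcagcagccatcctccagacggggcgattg
Ifitm1, chr7:140967986-140968105, plus strand: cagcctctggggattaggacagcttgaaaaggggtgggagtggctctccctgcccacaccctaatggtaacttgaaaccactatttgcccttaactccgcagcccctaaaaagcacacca
Ifitm6, chr7:141016863-141016982, minus strand: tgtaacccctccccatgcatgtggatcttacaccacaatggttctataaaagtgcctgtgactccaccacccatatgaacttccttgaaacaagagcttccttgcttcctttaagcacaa
Ifitm5, chr7:140950214-140950333, minus strand: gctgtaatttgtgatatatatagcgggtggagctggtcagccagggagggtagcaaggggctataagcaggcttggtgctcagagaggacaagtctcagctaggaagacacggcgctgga

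Ifitm3 held 2 such matches, starting 2 and 19 bases after the RefSeq start site, and Ifitm2 held 1, starting 46 bases before it. No match was found in the full windows of the other 5 members, which run from 250 bases before to 50 bases after the RefSeq start. For Ifitm1 and Ifitm6 the GENCODE start given above lies outside that window. The sequence around it was not searched, so a motif there would have been missed. Of all 32851 promoter windows of that length, 3.44% held at least 1 match and 0.225% held 2 or more. The interferon gamma motif GAS, TTCNNNGAA, reads the same on both strands and occurred in 8.30% of all windows. It was found once in Ifitm3, starting 13 bases after the start and overlapping the later of its ISRE core matches, and once in Ifitm6, starting 10 bases before the start. Among interferon-induced antiviral effector genes with a promoter in the table, 18 of 39 genes held an ISRE core match, against 3.99% of all 27025 genes. A match describes the letters and not binding in these cells.

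The p63 alphaKO libraries held 1699716 to 2999246 reads and the wild type libraries 3146374 to 3215333. A CPM is 1 read in 1000000 of its library, and differences are on log2(CPM + 1). Keratinocyte markers were present throughout, at a sum over 7 genes of 19948 to 28066 CPM in p63 alphaKO and 23933 to 26598 CPM in wild type, and none of the 7 was at 0. Trp63 was at 49.78, 59.32 and 57.01 CPM in p63 alphaKO replicates 9, 10 and 11, against 38.02, 53.16 and 48.92 CPM in wild type replicates 13, 14 and 15, which does not check the genotype, since a level per gene does not tell its forms apart. Ifitm3 is also expressed by immune, endothelial and connective tissue cells, and fewer cells of a type and less RNA per cell cannot be told apart in bulk RNA. Of 11 immune and Langerhans markers, 4 (H2-Aa, H2-Ab1, Cd207 and Tyrobp) were at 0 in every library, and the list summed to 10.3 to 17.8 CPM in p63 alphaKO and 9.32 to 11.9 CPM in wild type. Endothelial markers summed to 1.37 to 3.53 CPM in p63 alphaKO and 0 to 2.54 CPM in wild type, with Kdr, Emcn and Cldn5 at 0 throughout. Fibroblast markers summed to 5.88 to 37.3 CPM in p63 alphaKO and 16.5 to 36.5 CPM in wild type, with Lum at 0, and melanocyte markers to 230.4 to 1014 and 303.0 to 811 CPM in p63 alphaKO and wild type. Muscle markers summed to 2.28 to 41.7 CPM in p63 alphaKO and 35.8 to 444.7 CPM in wild type, highest in wild type replicate 15 and with Myh3 at 0. The part of these cells in the result was not tested. Xist was read at 673 CPM in p63 alphaKO replicate 11 and 290.64 CPM in wild type replicate 13, and at 0.32 CPM or less elsewhere. On the first principal component, with 33.2% of the variance, p63 alphaKO replicate 11 lay farthest to one side, at 61.2. Wild type replicate 15 was next at 13.6, and the other libraries lay between -26.9 and -8.74. Without p63 alphaKO replicate 11 and wild type replicate 15, the log2 difference of Ifitm3 was 1.21 (SE 0.18) and that of Ifitm2 0.63 (SE 0.22).

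Ifitm3 was the most abundant member by reads in all 6 libraries, and it was higher in p63 alphaKO, the difference for which the family was chosen. Its levels were 1195.07, 1678.88 and 1308.38 CPM in p63 alphaKO replicates 9, 10 and 11, against 658.25, 569.8 and 471.71 CPM in wild type replicates 13, 14 and 15. Every p63 alphaKO library lay above every wild type library, by 1.82-fold between the closest pair and 3.56-fold between the farthest. The means were 1394 ± 253 CPM in p63 alphaKO and 566.6 ± 93.3 CPM in wild type (SD, n = 3 each). The fitted difference on log2(CPM + 1) was 1.30 (SE 0.22), p63 alphaKO minus wild type, or 2.45-fold higher. These values rest on 9881 reads from the p63 alphaKO libraries and 5413 from the wild type libraries, so counting error is small beside the spread between libraries. Ifitm3 ranked 126 of 11716 tested genes by mean level and 94 by log2 difference, a rank that the choice of the family already used.

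Across all genes, 5 of 11716 passed limma's adjusted p threshold of 0.05, which is 0.0427%, and 4 of them were higher in p63 alphaKO (0.0341%). Of the 4 Ifitm members tested, 1 was among the higher ones, Ifitm3. Since its difference chose the family, that is no test of the gene and nothing is read from the share. Over all genes DESeq2 called 15 (0.128%) and edgeR's quasi-likelihood test 2 (0.0171%).

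**Figure D1:**
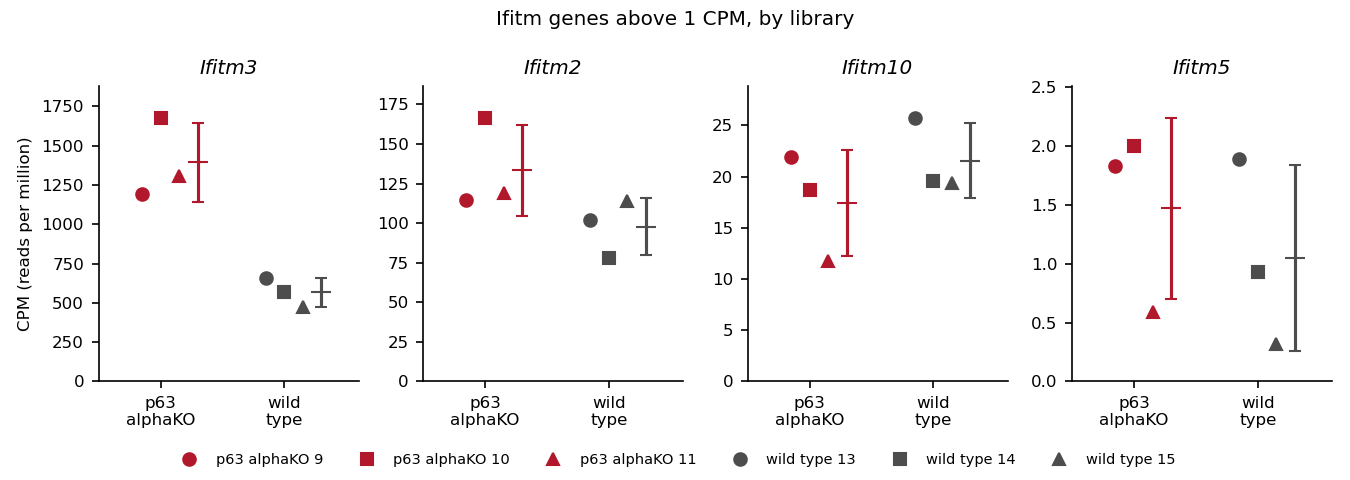
CPM of the 4 Ifitm genes above a mean of 1 CPM, 1 point per library, with the group mean and SD (n = 3) beside the points and a linear axis from 0 in each panel. For Ifitm3 the p63 alphaKO libraries sit between 1195.07 and 1678.88 CPM, all above the wild type libraries, while Ifitm10 and Ifitm5 overlap between the groups.

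Ifitm2, the close relative of Ifitm3 in sequence and likewise an antiviral endosomal protein, had a smaller difference. It stood at 114.62, 166.62 and 119.32 CPM in p63 alphaKO replicates 9, 10 and 11, against 101.8, 78.03 and 113.72 CPM in wild type replicates 13, 14 and 15. The groups did not overlap, but the lowest p63 alphaKO library was only 1.01 times the highest wild type library. Means were 133.5 ± 28.8 CPM and 97.8 ± 18.2 CPM in p63 alphaKO and wild type (SD, n = 3 each). The log2 difference was 0.44 (SE 0.24), and it was 0.27 without p63 alphaKO replicate 10 and 0.29 without wild type replicate 14. Groups that do not overlap were found for 11.5% of all genes tested, and Ifitm2 and Ifitm3 were the 2 members with such groups.

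The ratio of Ifitm3 to Ifitm2 was also taken within single libraries, where scaling to depth cancels out. There were 10.4, 10.1 and 11.0 reads of Ifitm3 for each read of Ifitm2 in p63 alphaKO replicates 9, 10 and 11, against 6.47, 7.30 and 4.15 in wild type replicates 13, 14 and 15. The p63 alphaKO ratios were close to each other, and all lay above the wild type ratios, of which replicate 15 was lowest. Both the ratio and the share of Ifitm3 among Ifitm reads use the Ifitm3 values that chose the family. Their separation between the groups therefore largely restates that difference and is no separate support for it. Ifitm3 made up 89.6% to 90.8% of all Ifitm reads in the p63 alphaKO libraries and 78.0% to 85.3% in the wild type libraries. These are ratios of reads from a 3' assay, which reads 1 end of each transcript, and were not scaled by length.

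Reads could be shared between members only in part. Of the 50-base words in the last 500 bases of the annotated Ifitm3 transcript, 14.0% occur in a transcript of another gene, among them Ifitm1, Ifitm2 and 3 predicted gene models. For Ifitm2 the share was 41.9%, with Ifitm3 and 6 gene models, and of all these gene models the table lists 1 (Gm45717), at 0 reads. How the authors' counting treated such reads is not given in the sources used here, so the level of Ifitm2 is the less certain of the pair. The Ifitm5 end shares 40.1% of its words with Gm45717. That model (140949222 to 140955937, minus strand) overlaps both Ifitm5 and Ifitm2 on their own strand. The level of Ifitm5 is therefore uncertain too, and the 0 reads of Gm45717 do not settle how shared reads were counted. No word of the Ifitm6, Ifitm7 or Ifitm10 ends occurs in another gene.

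Ifitm10 was at a lower level than Ifitm3 and Ifitm2, ranking 6241 of 11716 tested genes by mean level, with no separation of the groups. It was at 21.92, 18.66 and 11.76 CPM in p63 alphaKO replicates 9, 10 and 11, against 25.76, 19.58 and 19.38 CPM in wild type replicates 13, 14 and 15. The log2 difference was -0.32 (SE 0.33), smaller in size than its standard error, and p63 alphaKO replicate 11, the shallowest library, was the lowest. Without that library the difference was -0.08, it was -0.50 without p63 alphaKO replicate 9, and leaving out wild type replicate 13 gave -0.19. In sign it was opposite to Ifitm2 and Ifitm3.

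The remaining members were close to or below detection. Ifitm5, the bone-restricted member, was at 1.83, 2 and 0.59 CPM in p63 alphaKO replicates 9, 10 and 11, against 1.89, 0.93 and 0.32 CPM in wild type replicates 13, 14 and 15. Its reads numbered 11 over the p63 alphaKO libraries against 10 over the wild type libraries, a ratio of rates of 1.52 (exact 95% interval 0.588 to 4.00), and the fitted log2 difference was 0.29 (SE 0.61), with values of 0.01 to 0.58 when 1 library was left out. Of 6 osteoblast markers, 5 were at 0 in all libraries and Alpl summed to at most 0.93 CPM. Ifitm6 had 4 reads over the p63 alphaKO libraries (0, 3 and 1 in replicates 9, 10 and 11) and 0 in wild type, and the exact 95% interval of the ratio starts at 0.915, so a difference was not detectable at this depth. Ifitm1 had 1 read in p63 alphaKO and 0 in wild type, and Ifitm7 had none in either genotype. Over the pooled reads, a count of 0 allows up to 0.436 CPM in p63 alphaKO and 0.314 CPM in wild type, the level of 3 reads. These intervals and limits cover counting error only.

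Interferon-induced antiviral effectors other than the Ifitm genes covered a wide range of levels. Of 48 such genes in the table, 23 averaged under 1 CPM, 9 of them with no read, and 10 averaged 10 CPM or more. Ly6e and Shisa5 were the 2 above 100 CPM. Several that are widely used as interferon markers were near the detection limit. Mx1, a GTPase against influenza, had 2 reads over the p63 alphaKO libraries and 0 over the wild type libraries. Isg15, a ubiquitin-like modifier, had 9 reads over the p63 alphaKO libraries and 7 over the wild type libraries. Ifit1, which binds foreign RNA caps, had 1 and 4 reads in p63 alphaKO and wild type, and Rsad2, which encodes viperin, had 8 in each. These 4 genes were named for their role after their values were seen. Of the 18 interferon genes themselves, Ifnz was the 1 with any read, a single read in p63 alphaKO replicate 9. The keratinocyte interferon Ifnk was therefore at 0 in all 6 libraries, as was Ifne.

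The interferon pathway was described through 7 lists by role, holding 121 genes of the table, of which 72 were tested. None passed limma's threshold in either direction, and edgeR and DESeq2 also called none. An unadjusted p under 0.05 was found for 7 of them (9.72%), against 6.36% of all genes tested. Of the 72 genes, 45 were on the higher side and 27 on the lower side in p63 alphaKO, 62.5% higher against 50.7% of all genes tested. Their median log2 difference was 0.18, against 0.01 over all genes, and it was 0.10 without p63 alphaKO replicate 9 and 0.12 without wild type replicate 14. Groups did not overlap for 8 of the 72 in the higher direction and 4 in the lower direction, where all genes gave 6.45% and 5.09%.

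All 6 interferon receptor genes were tested, with 5 on the higher side (median log2 difference 0.35, limma lowest adjusted p = 0.767). Ifnar1, a chain of the type I interferon receptor, was at 13.3 ± 3.76 CPM in p63 alphaKO and 6.61 ± 2.71 CPM in wild type (SD, n = 3 each), with overlapping libraries (log2 difference 0.94, SE 0.41). Il10rb, shared by the receptors for type III interferon and interleukin 10, had a log2 difference of 0.50 (SE 0.36), and Ifnlr1, its partner for type III interferon, one of -0.76 (SE 0.64).

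Signalling genes and their regulators were evenly split, 6 and 6 of 12, with a median log2 difference of -0.02 (limma lowest adjusted p = 0.676). That median was -0.21 without p63 alphaKO replicate 9 and 0.08 without wild type replicate 13. Ptpn6, which encodes the phosphatase SHP-1, was at 21.1 ± 4.80 CPM in p63 alphaKO and 9.85 ± 6.00 CPM in wild type (log2 difference 1.14, SE 0.40). Irf9, the DNA-binding part of ISGF3, was at 22.4 ± 2.17 CPM in p63 alphaKO and 13.6 ± 7.62 CPM in wild type (0.80, SE 0.37), where wild type replicate 13, at 22.31 CPM, lay among the p63 alphaKO values. Socs1, an inhibitor of JAK kinases, was at 2.12 ± 2.38 CPM in p63 alphaKO and 5.75 ± 3.62 CPM in wild type (-1.27, SE 0.65). Stat2, another part of ISGF3 and likewise named for its role, had a log2 difference of 0.25 (SE 0.45). None of these genes passed.

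Among 7 IRF transcription factor genes tested, 4 lay higher and 3 lower (median 0.03, limma lowest adjusted p = 0.775). Leaving out 1 library gave medians of -0.18 (wild type replicate 14) to 0.55 (wild type replicate 15). Besides Irf9, Irf2, which can repress interferon-induced genes, was at 59.9 ± 12.5 CPM in p63 alphaKO and 40.4 ± 1.28 CPM in wild type (log2 difference 0.54, SE 0.26), with groups that did not overlap. Irf5, a factor of inflammatory signalling, had 10 reads over the p63 alphaKO libraries and 38 over the wild type libraries (-1.03, SE 0.55). Sensors of foreign nucleic acid and their adaptors had 8 of 12 on the higher side (median 0.14, limma lowest adjusted p = 0.767). The median was 0.09 without p63 alphaKO replicate 9, 0.28 without p63 alphaKO replicate 10, 0.25 and 0.24 without wild type replicates 13 and 15, and 0.21 without wild type replicate 14. Ddx58, encoding the RNA sensor RIG-I, had a log2 difference of 0.77 (SE 0.34), the kinase gene Ikbke one of 0.88 (SE 0.47), and Mb21d1, encoding the DNA sensor cGAS, one of -0.74 (SE 0.40).

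The antiviral effectors are the class to which Ifitm1, Ifitm2 and Ifitm3 belong. Of 48 listed genes, 25 were tested, 16 higher and 9 lower (median 0.21, and 0.39 without wild type replicate 13), with none past limma's threshold. Parp14, an ADP-ribosyltransferase, stood at a log2 difference of 1.05 (SE 0.48) and Oas1c, an OAS family member, at 1.02 (SE 0.48). The most abundant effector was Ly6e, an interferon-inducible membrane-anchored protein, at 172.9 ± 41.4 CPM in p63 alphaKO and 141.7 ± 11.0 CPM in wild type (0.26, SE 0.23). Class I antigen presentation genes had 7 of 11 on the higher side (median 0.17, limma lowest adjusted p = 0.885). Without p63 alphaKO replicate 9 the median was 0.07, and without wild type replicate 14 it was 0.08. Examples are Tap1, a peptide transporter chain, at 0.42 (SE 0.30), B2m, the class I light chain, at 0.25 (SE 0.21) and H2-Q4 at 0.59 (SE 0.56).

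**Figure D2:**
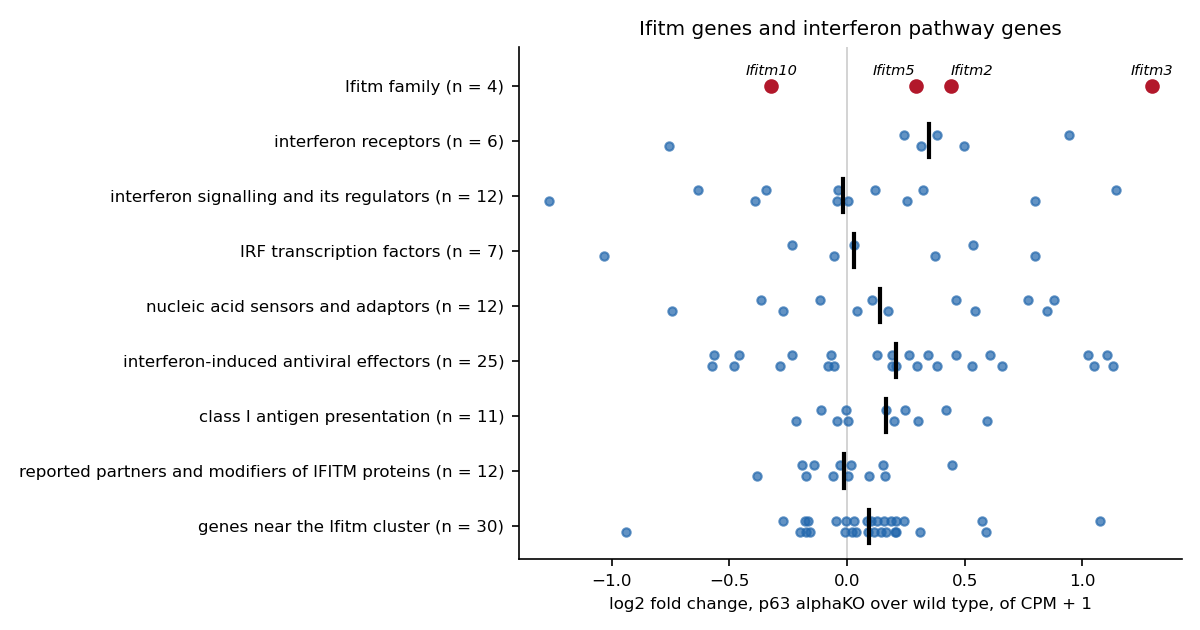
Fitted log2 fold change (p63 alphaKO over wild type, of CPM + 1) of the tested Ifitm genes, of the interferon pathway lists by role, of IFITM partners and of genes near the cluster. Each point is a gene, offset vertically only to keep points apart, and black bars are list medians, which lie between -0.02 and 0.35, while Ifitm3 lies at 1.30.

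Genes for proteins reported to bind or modify IFITM proteins in mouse or human cells were evenly split, 6 of 12 on each side, with a median log2 difference of -0.01 and none past the threshold (limma lowest adjusted p = 0.881, with 0 genes at an unadjusted p under 0.05, and 0 called by edgeR or DESeq2). Cd9, a tetraspanin, was at 164.0 ± 53.1 CPM in p63 alphaKO and 211.6 ± 48.2 CPM in wild type. Zdhhc7, an enzyme that attaches palmitate to proteins, was at 20.9 ± 5.08 CPM in p63 alphaKO and 15.1 ± 4.01 CPM in wild type, and Vapa, an endoplasmic reticulum anchor protein, at 183.8 ± 5.32 CPM and 213.0 ± 42.1 CPM in p63 alphaKO and wild type (SD, n = 3 each). Of 7 other genes for CD225 domain proteins, Tmem233 was the 1 with reads, 8 in wild type replicate 15 and none in the other libraries.

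The neighbours of Ifitm3 were measured to set its difference beside that of the surrounding chromosome. Within 500 kb of its start site the table lists 53 other genes outside the family, of which 30 were tested, 20 of them higher and 10 lower (median log2 difference 0.09, against 0.01 over all genes, and 0.021 without p63 alphaKO replicate 9). None passed limma's threshold (lowest adjusted p = 0.767), and edgeR and DESeq2 called none. An unadjusted p under 0.05 was found for 2 of them (6.67%), close to the 6.36% over all genes. On the Ifitm5 side of the cluster, Pgghg, which encodes an enzyme acting on collagen sugars, stood at -0.17 (SE 0.47), the mitochondrial deacetylase gene Sirt3 at 0.24 (SE 0.69) and the proteasome gene Psmd13 at 0.19 (SE 0.24). On the other side, the glycosyltransferase gene B4galnt4 stood at 0.04 (SE 0.50), the desmosomal gene Pkp3 at 0.10 (SE 0.24) and the ion channel family gene Ano9 at -0.27 (SE 0.54). The neighbours behind that count, Bet1l (0.57, SE 0.25) and Ptdss2 (-0.94, SE 0.43), were named after their values were seen. Irf7, an interferon regulator 256 kb away, had 10 reads over the p63 alphaKO libraries and 11 over the wild type libraries. The promoter windows of 6 of 45 neighbouring genes (13.3%) held an ISRE core match, against 3.99% of all 27025 genes.

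**Figure D3:**
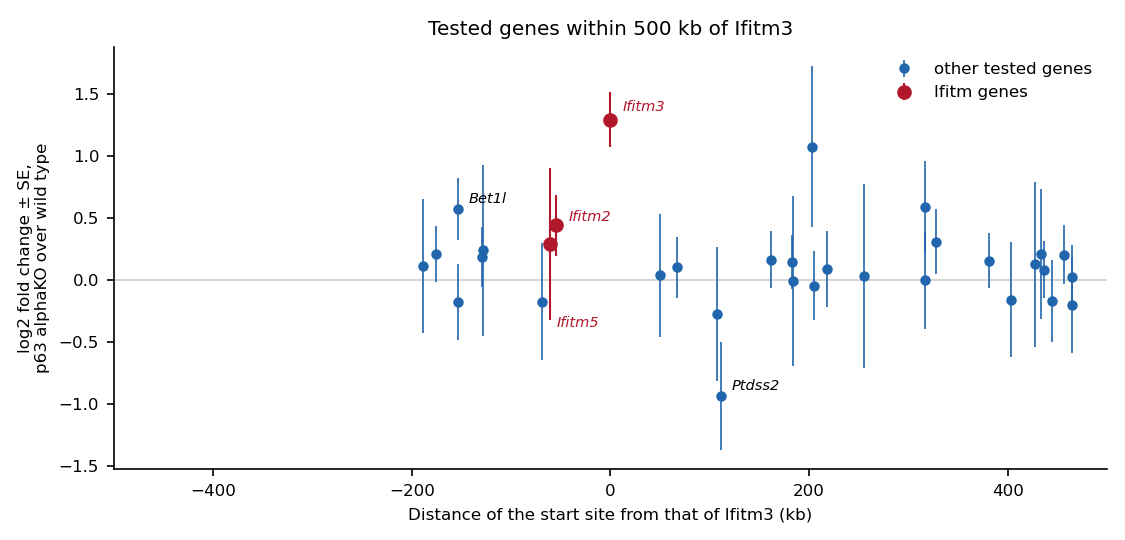
Fitted log2 fold change with its SE (p63 alphaKO over wild type, n = 3 each) of the tested genes within 500 kb of Ifitm3, against the distance of their start sites in kb. Ifitm3 lies at 1.30 and its neighbours lie between -0.94 and 1.08, with wide errors at the ends of that range.

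The profiles closest to that of Ifitm3 over the 6 libraries, named below, came from genes outside the interferon lists. Only 72 of the 11716 tested genes are on those lists, so this is likely for most profiles. Nothing about interferon is read from it. Likeness was the root mean square difference between log2(CPM + 1) profiles, each centred on its own mean, among 7804 genes that averaged 10 CPM or more. The closest were Igfbp4 (0.13), which binds insulin-like growth factors, the ubiquitin ligase gene Rnf144b (0.17), the peroxisomal oxidase gene Acox3 (0.18), the peptide transporter gene Slc15a2 (0.19) and the sorbitol dehydrogenase gene Sord (0.27). The median over all 7804 genes was 0.74, and a gene at the same level in every library would be at 0.68. Ifitm2 was at 0.49 (rank 305), and Ifitm10 at 0.86. Igfbp4 had 31.97, 44.65 and 34.09 CPM in p63 alphaKO replicates 9, 10 and 11, against 20.74, 12.75 and 12.39 CPM in wild type replicates 13, 14 and 15, with replicate 10 the highest of its group as for Ifitm3. Picking genes by likeness fixes that they differ between the groups in the same direction.

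**Figure D4:**
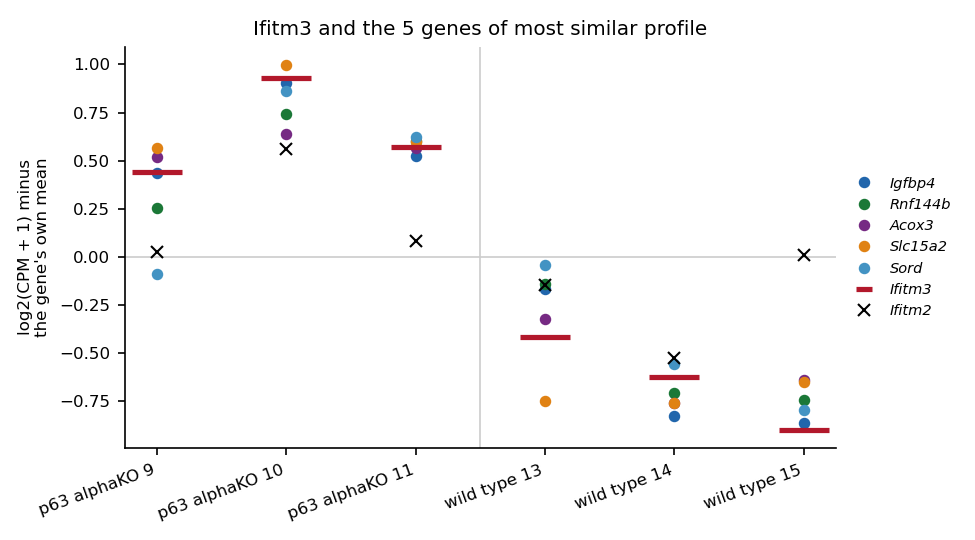
Centred log2(CPM + 1) of Ifitm3 (red bars), of the 5 genes with the most similar profile (dots) and of Ifitm2 (crosses) in each library. Ifitm3, Igfbp4, Rnf144b, Acox3 and Slc15a2 lie above their own mean in all 3 p63 alphaKO libraries and below it in all 3 wild type libraries, Sord lies below it in p63 alphaKO replicate 9, and Ifitm2 lies near its mean in p63 alphaKO replicates 9 and 11 and wild type replicate 15.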

How the data were processed

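The authors deposited 1 table of CPM for 6 libraries. The submitters' processing notes name STAR, HTSeq and the build mm10 without saying what each did, and per the labels' protocols the assay was 3' digital gene expression. The deposited CPM columns sum to 999047 to 999508, and dividing by the CPM of 1 read gave whole numbers (within 0.1) for 100% of nonzero values, so whole reads were recovered (1699716 to 3215333 per library). Whether molecular identifiers were used is not stated in the labels.

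The 11716 genes averaging 1 CPM or more were tested with limma 3.58.1 (R 4.3.3, eBayes with trend) on log2(CPM + 1), which understates changes of low genes. Tests were two-sided, p-values were adjusted by Benjamini-Hochberg (threshold 0.05), and SE is moderated. A log2 difference is p63 alphaKO minus wild type. edgeR 4.0.16 and DESeq2 1.42.0 on the recovered reads were alternatives, beside scaling (TMM, quantile), pseudocounts of 0.5 and 5, filters, no trend, and leaving out libraries. The main limma fit and edgeR were tried on simulated counts with the same dispersion for all genes. DESeq2 and the other settings were not tried in this way.

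The members and the gene lists were chosen with earlier results of these data known. Named were all members, the 3 genes of smallest p per list where none passed, the 3 nearest tested neighbours on each side of the cluster and the 5 genes most like Ifitm3. Exceptions are stated, and some items that the rule names are not reported here. Of 192 listed genes, 2 are not in the table under the symbols used. Of the table's symbols, 28516 were found once in GENCODE vM21. All 7 members matched the RefSeq promoter table, and protein sequences were not used here, so coding bases were compared (Biopython 1.88).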

Additional observations from a re-analysis of the deposited data

How the results depend on the processing

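The log2 differences of Ifitm3 (1.15 to 1.41) and Ifitm2 (0.27 to 0.63) kept their sign and moved by less than 1 SD between replicates under all 16 alternatives, and so did the median of the 7 interferon lists (0.10 to 0.21). Ifitm3, whose difference chose the family, was past the threshold in 4 of them and not in 12. The number of members past the threshold was 0 with TMM scaling, edgeR, a minimum mean of 5 CPM, no filter, no trend, or a pseudocount of 0.5 or 5, and 0 to 1 when 1 library was left out. The number of genes past it was 15 by DESeq2, 2 by edgeR, 2 with a minimum of 5 CPM, 1 with no filter, 0 with no trend (827 at an unadjusted p under 0.05), 2 and 3 with pseudocounts of 0.5 and 5, 31 without p63 alphaKO replicate 11 and wild type replicate 15, and 2 to 12 when 1 library was left out. The cause was not tested. No interferon list gene or neighbour was called under any alternative (limma, edgeR or DESeq2, with 0 to 11 and 0 to 3 at an unadjusted p under 0.05). The median of the neighbours was 0.21 without both libraries and 0.021 (without p63 alphaKO replicate 9) to 0.14 when 1 was left out. For the IRF genes it was 0.37 with a minimum of 5 CPM and 0.41 without both libraries. No paired analysis was possible because the groups share no replicate number. Depth limits Ifitm1, Ifitm5, Ifitm6 and Ifitm7, at 21 reads or fewer over all libraries.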
